A study of Saccharomyces cerevisiae with 16 samples.

Results

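The comparison covers RNA of Saccharomyces cerevisiae kept for 2 h in hydroxyurea, hybridised against RNA of the untreated culture on 2-colour yeast slides. It comprises 4 readings of 2 slides, out of 16 readings of 8 slides in the series, whose labels alone decide that they belong to it. All cells were of the wild-type strain CDY59 in the rich medium YPD. The untreated sample was taken at an optical density of 0.5, and the treated sample came from cells that reached this density and then spent 2 h in 200 mM hydroxyurea. The other slides hold cells treated for 1, 4 and 6 h, with 2 slides and 4 readings at each time. On one 2 h slide the treated RNA was in channel 1 and on the other in channel 2, and these are called the channel 1 slide and the channel 2 slide. Each slide was read at settings titled faible and fort (French for weak and strong), which the labels do not explain further.

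Total RNA was purified on RNeasy columns before indirect labelling. No untreated culture kept for a further 2 h is described, and an effect of that time in culture would be part of every ratio. It is not stated whether separate cultures or extracts went onto the 2 slides, or whether the untreated RNA was common to them all. The p-values therefore measure spread between slides, which may be technical. A difference between the channel orientations that is common to all times is first taken out of this spread. A ratio holds no level, so the strain could not be checked against marker genes.

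Hydroxyurea inhibits ribonucleotide reductase, the enzyme that makes deoxyribonucleotides, and so slows DNA replication. In yeast, stalled replication forks activate the checkpoint kinases Mec1, Rad53 and Dun1, which lift the repression of the ribonucleotide reductase genes and delay mitosis. Histone genes are transcribed mainly in S phase, and genes for the separation of daughter cells mainly at the end of mitosis. Genes of stress defence and of ribosome production often change in opposite directions when yeast growth slows.

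Every value below is a log2 ratio of treated over untreated RNA, centred on the median gene of its reading, with the 2 readings of a slide averaged. As the labels name no numerator, the sign was set so that RNR2 and RNR4 came out positive. Each direction given below is thus a likely one that the labels do not settle, and RNR2 and RNR4 say nothing for it. The base of the logarithm was taken as 2, which the files do not state. The table holds 6912 spots without a missing value. Of these, 3344 spots name a single gene, which gave 3127 genes.

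The 2 slides of 2 h agreed for few genes. Readings of the same slide correlated across genes at 0.960 on the channel 1 slide and 0.952 on the channel 2 slide, whereas the 2 slides correlated at -0.0339. These correlations are across genes, which are not independent replicates. The sign was the same in all 4 readings for 1052 genes (33.6%), of which 549 were above and 503 below 0, and 1819 genes had opposite signs on the 2 slides. The slides leaned opposite ways. On the channel 1 slide 97 genes stood at 1 or more and 200 at -1 or less. On the channel 2 slide 316 genes stood at 1 or more and 32 at -1 or less.

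Both slides stood at 1 or more for 39 genes (1.25% of all genes) and at -1 or less for 18 genes (0.576%). Against these 57 agreeing genes, 34 (1.09%) stood at -1 or less on the channel 1 slide and at 1 or more on the channel 2 slide, and 0 the other way round. By list, the 39 higher genes held 4 of 21 measured general stress genes, 3 of 26 of oxidative stress and 2 of 20 of iron uptake. They also held 2 of 5 of ribonucleotide reductase, RNR2 and RNR4, whose sign was fixed by the choice of direction. The chaperone (18 measured), proteasome (24), stationary phase (13) and sulfur amino acid (17) lists had 1 each. The 18 lower genes held 6 of 49 measured ribosomal protein genes, 4 of 16 of cell separation and 2 of 66 of ribosome biogenesis. They also held 2 of 30 of RNA polymerases I and III, 1 of 19 translation factors and 1 of 4 histone genes.

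**Figure D1:**
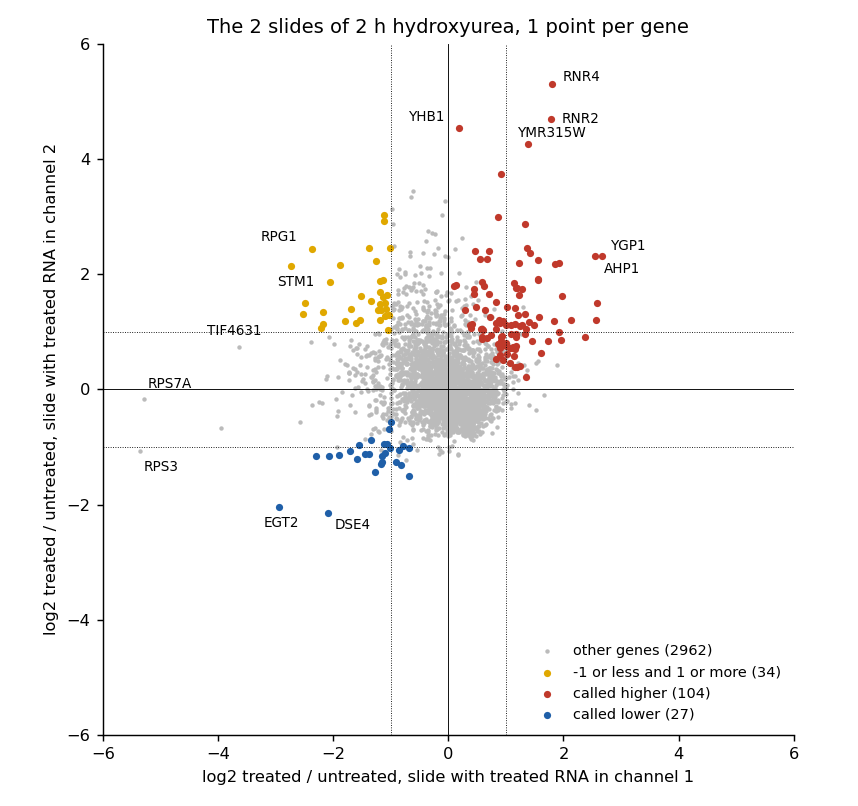
Log2 ratio of treated over untreated RNA on the channel 1 slide (x axis) against the channel 2 slide (y axis), with 1 point per gene, dotted lines at 1 and -1, and colours for the genes called higher (104) and lower (27) and the opposed genes (34). The called genes lie in the upper right and lower left, the 34 opposed genes in the upper left, and the lower right beyond the dotted lines is empty.

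In the limma model across all 8 slides, which holds a term for each time and a term for the channel orientation, 131 of 3127 genes passed at 2 h with an adjusted p under 0.05. Of these, 104 were higher (3.33% of all genes) and 27 lower (0.863%). An absolute log2 ratio of 1 or more was reached by 64 of the higher and 22 of the lower genes, and 130 of the 131 had the same sign in all 4 readings. The exception was BRF1, a subunit of the initiation factor of RNA polymerase III, at -0.01 and 0.22 on the channel 1 slide and 1.43 and 2.17 on the channel 2 slide. The fitted value is the mean of the 2 slides, and its median standard error was 0.180. This error leaves out the slide difference that the orientation term takes up, so it does not measure how well the 2 slides agree. RNR4, for example, stood at 1.80 and 5.30 on the slides with a standard error of 0.50.

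The calls lean on the orientation term, which assumes that the difference between a channel 1 and a channel 2 slide is the same at every time. Across genes, this difference at 2 h correlated with that at 1 h at 0.694, at 4 h at 0.510 and at 6 h at 0.509. The 2 slides of a time correlated at -0.0809 at 1 h and -0.0339 at 2 h, but at 0.504 at 4 h and 0.579 at 6 h. Whether the assumption holds at 2 h was not tested. Without the orientation term 5 genes passed, 4 higher and 1 lower. With the 2 slides of 2 h alone 16 passed, 13 higher and 3 lower. The split between directions also moved with scaling. As deposited, where the median gene stood at -0.215, 87 genes were higher and 150 lower, and after quantile normalization 57 were higher and 72 lower. Of the 17 alternatives applied to single genes, AQY3, DSE4, GRE1 and YGP1 passed in every one. Leaving out either slide of 1 h gives the same result at 2 h, as does either of 4 h or of 6 h. The 17 are therefore not all separate checks. Without the channel 1 slide of 2 h 118 genes were higher and 3 lower, and without the channel 2 slide 39 were higher and 90 lower.

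The genes for the small subunits of ribonucleotide reductase, which set the direction, had the fitted values furthest above 0. Were the direction turned, theirs would be furthest below 0 among the called genes. RNR4 (YGR180C), a small subunit, read 1.66 and 1.94 on the channel 1 slide and 5.22 and 5.38 on the channel 2 slide (faible, then fort, here and below). RNR2 (YJL026W), the other small subunit, read 1.75 and 1.80, and then 4.63 and 4.76. Both were high in all 4 readings, with every channel 2 reading above every channel 1 reading. Their fitted changes were 3.55 ± 0.50 (SE, adjusted p = 0.0111) and 3.24 ± 0.67 (adjusted p = 0.0411), or 11.7-fold and 9.42-fold if the base is 2.

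DUN1 (YDL101C), the checkpoint kinase that acts upstream of these genes, read 0.48 and 0.61 on the channel 1 slide and 1.86 and 2.68 on the channel 2 slide. It rose by 1.41 ± 0.27 (adjusted p = 0.0311). WTM1, which helps hold the small subunits in the nucleus, was at 0.67 and did not pass (adjusted p = 0.172), and neither did its relative WTM2 at 0.04. In all, 3 of 5 measured members of this list were higher, beside 3.33% of all genes, and the sign of RNR2 and RNR4 among them was fixed by the choice of direction. The list median was 1.41, against 0.00 over all genes. Without the channel 2 slide of 2 h, RNR2 (adjusted p = 0.202) and DUN1 (adjusted p = 0.180) lost the call. RNR2 also lost it without the channel 1 slide (adjusted p = 0.0772), and DUN1 with either slide of 1 h left out (adjusted p = 0.0694).

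The large subunit genes RNR1 and RNR3, HUG1 and the histone gene HTA1 were not analysed here. Of 20 other measured genes of the DNA damage checkpoint and of DNA repair, 0 passed in the limma model. Their median was -0.08, and 1 had an unadjusted p under 0.05 with a positive sign, as had 406 of all 3127 genes. Of the 26 measured G1/S transcripts, made by MBF and SBF as cells commit to division, 0 passed in the limma model. In this list 4 had an unadjusted p under 0.05 with a positive sign, beside the same 406 of all 3127 genes. The list median of 0.15 became -0.07 as deposited.

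Of 26 measured genes of redox defence, many of them targets of the oxidant-responsive factor Yap1, 7 (26.9%) rose, beside 3.33% of all genes, and 0 fell. The median was 0.33, which was 0.34 on the channel 1 slide and 0.68 on the channel 2 slide. AHP1 (YLR109W), a peroxiredoxin that reduces alkyl hydroperoxides, read 3.26 and 1.82 on the channel 1 slide and 2.77 and 1.85 on the channel 2 slide. The ranges of the 2 slides overlapped, with the faible reading above the fort reading on both. AHP1 rose by 2.43 ± 0.22 (adjusted p = 0.0032), an error that leaves out the gap between readings of a slide. Its change was 3.015 with the faible readings only and 1.835 with the fort readings only.

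PRX1 (YBL064C), the mitochondrial peroxiredoxin, read 1.12 and 1.54 and then 2.61 and 3.12. It rose by 2.10 ± 0.20 (adjusted p = 0.0032), with the channel 2 readings above the others. The superoxide dismutase genes SOD2 and SOD1, which act in mitochondria and mainly in the cytosol, rose by 1.30 ± 0.16 and 0.92 ± 0.17. The thioredoxin gene TRX2 rose by 0.93 ± 0.17, and AAD14, of the aryl alcohol dehydrogenase family, by 0.86 ± 0.17.

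YHB1 (YGR234W), the flavohaemoglobin that detoxifies nitric oxide, was unlike the rest of this list. It read 0.07 and 0.31 on the channel 1 slide and 4.52 and 4.56 on the channel 2 slide, so that its change of 2.37 ± 0.46 (adjusted p = 0.0325) was carried by the channel 2 slide. Without that slide it did not pass (adjusted p = 0.105), nor did TRX2 (adjusted p = 0.124), and the list then had 3 members called. Without the channel 1 slide it had 5, and 4 as deposited.

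Of 21 measured environmental stress genes, many driven by Msn2 and Msn4, 8 (38.1%) rose, beside 3.33% of all genes, and 0 fell. In this list 15 were above 0 in all 4 readings, as were 549 of all 3127 genes, and 0 were below 0 in all 4. The median was 0.73, at 0.62 on the channel 1 slide and 0.91 on the channel 2 slide. YGP1 (YNL160W), a secreted cell wall glycoprotein, read 2.49 and 2.84 on the channel 1 slide and 2.27 and 2.38 on the channel 2 slide. The 2 slides lay close together for this gene, and its change was 2.50 ± 0.24 (adjusted p = 0.0032).

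PGM2 (YMR105C), the main phosphoglucomutase of glycogen and trehalose synthesis, read 2.44 and 2.72 and then 1.32 and 1.68. Here the channel 1 slide was the higher, and the change was 2.04 ± 0.26 (adjusted p = 0.0079). HSP26 (YBR072W), a small heat shock chaperone, read 1.28 and 1.85 and then 1.88 and 2.63, with a change of 1.91 ± 0.29 (adjusted p = 0.0142). PNC1, the nicotinamidase that feeds NAD salvage, rose by 1.71 ± 0.22, and RTC3 by 1.64 ± 0.20. The other 3 called members were SOL4 and GND2, of the pentose phosphate pathway, and TPS1, the trehalose phosphate synthase, and they rose by 0.84 to 1.42. HSP26 lost the call without the channel 2 slide (adjusted p = 0.0773).

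Other lists had 1 or 2 members called higher, or 3.33% to 11.8% of their measured members, beside 3.33% of all genes. With so few calls these shares are no result about the lists. Among 18 chaperones the only call was SBA1, the Hsp90 co-chaperone, which read 1.38 and 1.46 and then 2.31 and 2.43 and rose by 1.90 ± 0.24 (adjusted p = 0.0078). Among 20 genes of iron uptake FIT3 and ENB1 rose. FIT3, which holds siderophore-bound iron at the cell wall, read 2.21 and 2.91 and then 1.01 and 1.40, with a change of 1.88 ± 0.23. ENB1, a transporter of the siderophore enterobactin, read 1.03 and 1.30 and then 1.02 and 1.24, nearly the same on both slides, with a change of 1.15 ± 0.21 (adjusted p = 0.0260). The median of the list was 0.12, and -0.10 as deposited, and the other 18 genes were not called.

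Proteasome subunits had 2 of 24 members higher, PRE5 by 1.20 ± 0.19 and PRE1 by 0.73 ± 0.16, both of the catalytic core particle. PRE1 lost the call in 16 of 17 alternatives and PRE5 in 3. In the cell wall integrity list of 17, CIS3, a wall mannoprotein, rose by 1.17 ± 0.24 and YPS3, an aspartic protease of the surface, by 0.93 ± 0.18. PST1, a cell wall protein of the same list, fell by 0.89 on the log2 scale, with an SE of 0.18. MET17, which makes homocysteine, rose by 1.43 ± 0.22 as the only call among 17 genes of sulfur amino acids. ALD4, the mitochondrial aldehyde dehydrogenase, rose by 1.15 ± 0.19 as the only call among 15 glucose-repressed genes.

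Close agreement between the slides was also seen for AQY3, GRE1 and OLE1. AQY3 (YFL054C), of the aquaglyceroporin family, read 1.65 and 2.21 on the channel 1 slide and 1.92 and 2.46 on the channel 2 slide. GRE1 (YPL223C), a hydrophilin induced by drying and osmotic stress, read 1.69 and 2.03 and then 1.93 and 2.41. For both genes the readings of the 2 slides overlapped, and the changes were 2.06 ± 0.20 and 2.02 ± 0.17 (adjusted p = 0.0032 each). OLE1 (YGL055W), the fatty acid desaturase, read 1.77 and 2.18 and then 1.67 and 1.56, with a change of 1.80 ± 0.18 (adjusted p = 0.0036).

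Other large increases were carried unequally by the slides. YMR315W, an NADP-dependent oxidoreductase, read 1.17 and 1.61 and then 3.95 and 4.57, with a change of 2.83 ± 0.51 (adjusted p = 0.0250). It did not pass without the channel 2 slide (adjusted p = 0.162) or with either slide of 1 h left out (adjusted p = 0.0503). APE1 (YKL103C), a vacuolar aminopeptidase, read 0.81 and 1.01 and then 3.44 and 4.05, with a change of 2.33 ± 0.30 (adjusted p = 0.0078). UBA1 (YKL210W), the ubiquitin-activating enzyme, read 0.82 and 0.91 and then 2.92 and 3.06, with a change of 1.93 ± 0.29 (adjusted p = 0.0142, and 0.0588 without the channel 2 slide). For these 3 genes the channel 2 readings all lay above the channel 1 readings.

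**Figure D2:**
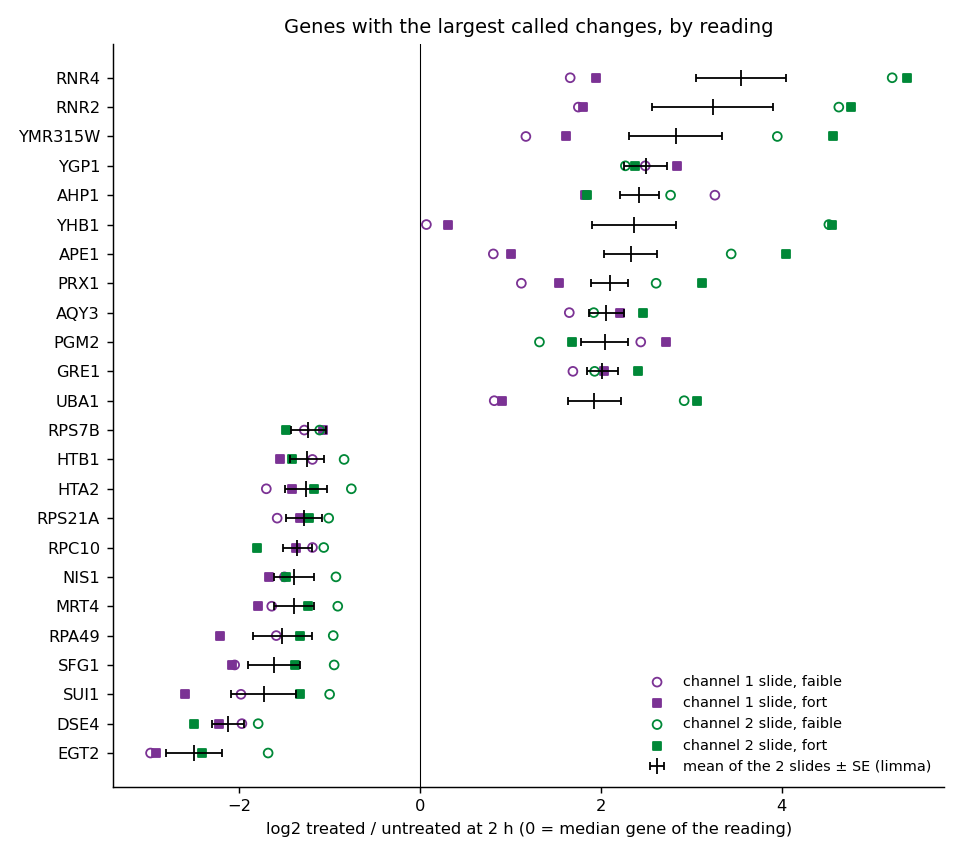
Log2 ratio of treated over untreated RNA (x axis) of the 12 called genes with the largest increase and the 12 with the largest decrease (y axis), with the 4 readings of 2 h as points and the mean of the 2 slides ± SE of the limma model in black. The readings of the 2 slides overlap for AQY3, GRE1 and DSE4, whereas RNR2, RNR4, YMR315W, YHB1, APE1 and UBA1 lie much higher on the channel 2 slide.

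Of 16 measured genes expressed at the end of mitosis, 4 (25.0%) fell, beside 0.863% of all genes, and 0 rose. In this list 11 had an unadjusted p under 0.05 with a negative sign, as had 209 of all 3127 genes, and all fitted values lay between -2.50 and -0.08. EGT2 (YNL327W), a cell wall protein of daughter separation, read -2.98 and -2.92 on the channel 1 slide and -1.68 and -2.41 on the channel 2 slide, and its change was -2.50 ± 0.31 (adjusted p = 0.0078). DSE4 (YNR067C), a daughter-specific glucanase, read -1.97 and -2.22 and then -1.79 and -2.50. The slides overlapped for DSE4, and its change was -2.12 ± 0.18 (adjusted p = 0.0032). NIS1, a bud neck protein, and DSE3, another daughter-specific protein, had changes of -1.40 ± 0.22 and -0.85 ± 0.18.

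The list median was -0.79, at -1.45 on the channel 1 slide and -0.41 on the channel 2 slide. The chitinase gene CTS1, which belongs to the same list, read -1.63 and -2.24 and then -0.74 and -1.26 without passing (adjusted p = 0.0656). Without the channel 1 slide of 2 h, 2 members were called and NIS1 was not (adjusted p = 0.105). As deposited, 9 were called. Of the 9 measured G2/M transcripts of the CLB2 cluster, which precede them in the cycle, 0 passed in the limma model. Their median was -0.42. An unadjusted p under 0.05 with a negative sign was held by 5 of the 9, and by 209 of all 3127 genes. In RNA of whole cultures, fewer cells in a cycle stage and less RNA per cell cannot be told apart.

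Of 4 measured histone genes 3 fell, beside 0.863% of all genes. HTA2 (YBL003C), for histone H2A, read -1.70 and -1.42 on the channel 1 slide and -0.76 and -1.17 on the channel 2 slide. HTB1 (YDR224C) and HTB2 (YBL002W), the gene pair for histone H2B, read -1.19, -1.55, -0.84 and -1.42, and -1.05, -0.78, -1.07 and -1.45. All 12 readings were below 0. HTA2 changed by -1.26 ± 0.23 (adjusted p = 0.0250), HTB1 by -1.25 ± 0.18 (adjusted p = 0.0130) and HTB2 by -1.09 ± 0.17 (adjusted p = 0.0142). HTZ1, the H2A variant, was at 0.30 and did not pass (adjusted p = 0.415).

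HTB1 and HTB2 are near-identical in sequence and their spots may share signal, so they count as uncertain. Without the channel 1 slide none of the 3 was called, with an adjusted p of 0.169 for HTA2, 0.0594 for HTB1 and 0.0581 for HTB2. HTB2 was also lost without the channel 2 slide (adjusted p = 0.0589), and HTA2 with either slide of 1 h left out (adjusted p = 0.0561).

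Of 49 measured cytosolic ribosomal protein genes 8 fell and 0 rose, beside 0.863% of all genes called lower. In this list 24 had an unadjusted p under 0.05 with a negative sign, as had 209 of all 3127 genes. In all 4 readings 25 were below 0 and 0 were above, beside 503 below and 549 above among all genes. The median was -0.65, at -0.89 on the channel 1 slide and -0.44 on the channel 2 slide. RPS7B (YNL096C), of the small subunit, read -1.28 and -1.07 and then -1.11 and -1.48, and RPL11A (YPR102C), of the large subunit, read -1.20 and -1.11 and then -1.09 and -1.44. The slides overlapped for both, and the changes were -1.24 ± 0.19 and -1.21 ± 0.19 (adjusted p = 0.0142 each). RPS21A, RPS22A and RPL11B had changes of -1.29 ± 0.20, -1.16 ± 0.18 and -1.11 ± 0.15.

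The other 3 called members, RPS12, RPS25B and RPL10, lay between -1.09 and -0.96. RPL11A and RPL11B encode the same protein and their spots may share signal. The count of called members was 0 without the channel 1 slide, 16 without the channel 2 slide, 18 after quantile normalization and 28 as deposited. All of these calls were to the lower side.

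RPS3 (YNL178W) and RPS7A (YOR096W) did not pass, although they held the lowest values of the channel 1 slide. RPS3 read -5.06 and -5.66 on the channel 1 slide and -0.91 and -1.23 on the channel 2 slide (adjusted p = 0.0674). RPS7A read -5.07 and -5.51 and then 0.15 and -0.47 (adjusted p = 0.136). Its paralog RPS7B, given above, showed no such difference between the slides.

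Factors that make ribosomes and start translation held fewer calls. Of 66 genes of ribosome biogenesis 2 (3.03%) were lower, beside 0.863% of all genes. These were MRT4, at -1.40 ± 0.22 (adjusted p = 0.0152), and NOP15, at -1.01 ± 0.18 (adjusted p = 0.0221), both of large subunit assembly. The list median was -0.15, at -0.57 on the channel 1 slide and 0.12 on the channel 2 slide, so the sign differed between the slides. Of 19 translation factors 2 (10.5%) fell, SUI1 and CAF20, beside 0.863% of all genes. SUI1 (YNL244C), which takes part in start codon choice, stood at -2.29 on the channel 1 slide and -1.17 on the channel 2 slide, with a change of -1.73 ± 0.36 (adjusted p = 0.0421). CAF20, which binds the cap-binding factor and represses translation, had a change of -1.11 ± 0.20. EAP1, another protein that binds this factor, is outside the list and went the other way, at 1.19 ± 0.16 (adjusted p = 0.0098). CAF20 lost the call in 7 of 17 alternatives and EAP1 in 2.

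Among 30 genes of RNA polymerases I and III and their factors, 2 (6.67%) were lower, beside 0.863% of all genes. BRF1 alone (3.33%) was higher, the same share as the 3.33% of all genes called higher. RPC10 (YHR143W-A), a subunit shared by the nuclear RNA polymerases, read -1.19 and -1.37 on the channel 1 slide and -1.07 and -1.80 on the channel 2 slide, with a change of -1.36 ± 0.16 (adjusted p = 0.0073). RPA49, of RNA polymerase I, read -1.59 and -2.21 and then -0.96 and -1.33, with a change of -1.52 ± 0.33 (adjusted p = 0.0472). SFG1, a transcriptional regulator of filamentous growth outside these lists, read -2.05 and -2.08 and then -0.95 and -1.38, with a change of -1.62 ± 0.29 (adjusted p = 0.0250). Without the channel 1 slide of 2 h, SUI1 (adjusted p = 0.277), RPA49 (adjusted p = 0.299), SFG1 (adjusted p = 0.164), MRT4 (adjusted p = 0.0951), CAF20 (adjusted p = 0.169) and NOP15 (adjusted p = 0.0736) lost the call. NOP15 also lost it without the channel 2 slide (adjusted p = 0.0922), and SUI1 (adjusted p = 0.0785), RPA49 (adjusted p = 0.0771) and CAF20 (adjusted p = 0.0573) with either slide of 1 h left out.

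**Figure D3:**
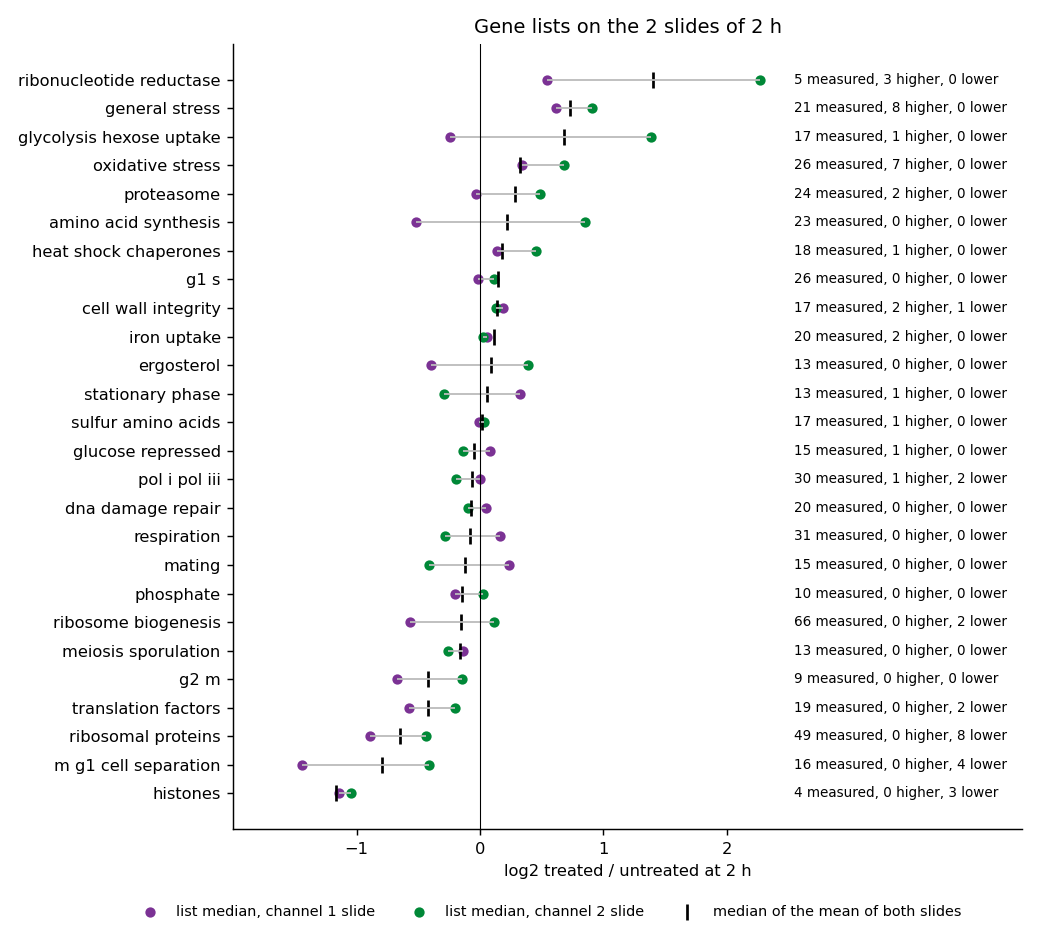
Median log2 ratio of treated over untreated RNA of the 26 gene lists (y axis) on the channel 1 slide, on the channel 2 slide and in the mean of both (x axis), with the measured and called members written at the right. General and oxidative stress lie above 0 and histones, M/G1 transcripts and ribosomal proteins below 0 on both slides, whereas glycolysis and amino acid synthesis have medians of opposite sign on the 2 slides.

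Several lists had 0 called members in the limma model. These were respiration (31 measured, 2 with an unadjusted p under 0.05), amino acid synthesis (23 and 4), mating (15 and 3), ergosterol (13 and 1), meiosis and sporulation (13 and 1) and phosphate (10 and 1). Among all 3127 genes 615 had an unadjusted p under 0.05. Mating, meiosis and stationary phase genes stand for other cell types or states. The mating pheromone gene MF(ALPHA)2 is outside the mating list and was called higher, at 0.92 ± 0.19 (adjusted p = 0.0372). It lost the call in 10 of 17 alternatives. Of the 13 stationary phase genes only GRE1 was called, and the medians of these 3 lists were -0.12, -0.16 and 0.06. The part of such cells in the other results was not tested.

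Glycolysis and hexose uptake showed the largest split between the slides among the lists with more than 5 members. The median of 17 genes was -0.24 on the channel 1 slide and 1.39 on the channel 2 slide. GPD1, which diverts sugar to glycerol, rose by 0.96 ± 0.17 (adjusted p = 0.0250) as the only call. In this list 9 genes had an unadjusted p under 0.05 with a positive sign, as had 406 of all 3127 genes. GPD1 did not pass without the channel 1 slide (adjusted p = 0.123) or without the channel 2 slide (adjusted p = 0.0705). The glyceraldehyde phosphate dehydrogenase gene TDH3 stood at -0.05 on the channel 1 slide and 3.27 on the channel 2 slide (adjusted p = 0.0837), and the pyruvate kinase gene CDC19 at -0.64 and 3.35 (adjusted p = 0.135).

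The 34 opposed genes included 3 of this list, PGI1, FBA1 and HXK2, which act in the upper part of glycolysis. PGI1, the phosphoglucose isomerase gene, read -1.84 and -1.94 on the channel 1 slide and 2.07 and 2.24 on the channel 2 slide. STM1, whose product binds and preserves idle ribosomes, read -2.63 and -2.82 and then 2.01 and 2.27. RPG1, a subunit of an initiation factor complex, read -2.43 and -2.32 and then 2.48 and 2.41. In each case both readings of a slide stood on the same side of 0, and the fitted values of 0.13, -0.29 and 0.04 were near 0.

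None of the 34 opposed genes was called in the limma model. Their lists were, besides glycolysis, ribosome biogenesis and chaperones (2 genes each), and amino acid synthesis, G1/S, translation factors and ribosomal proteins (1 gene each), while 23 were in no list. The median difference of these genes, channel 1 slide minus channel 2 slide, was -3.05 at 2 h, where the rule that chose them fixed its sign. The other times were not used to choose them. There the median difference was -1.81 at 1 h (33 of 34 genes below 0), -0.79 at 4 h (28 of 34) and -0.72 at 6 h (28 of 34). Among all genes 50.7%, 49.5% and 51.1% were below 0 at these times. What makes the channel orientations differ was not tested.

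**Figure D4:**
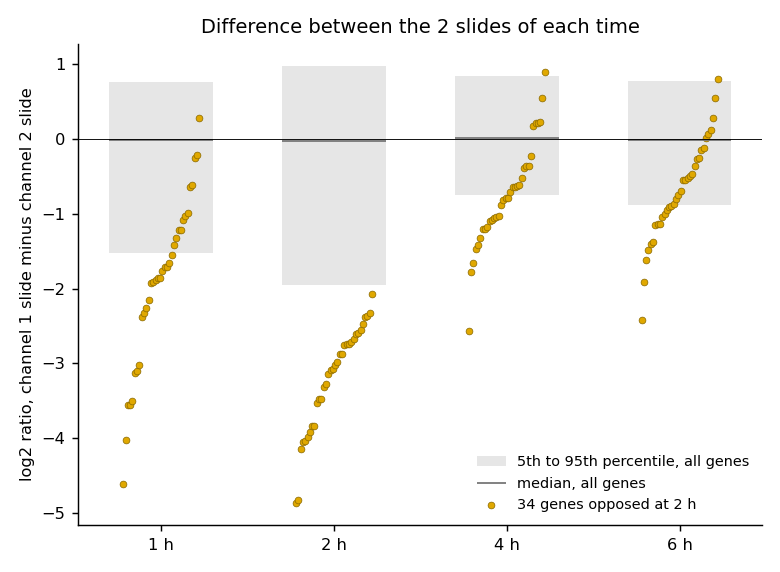
Difference in log2 ratio between the channel 1 slide and the channel 2 slide (y axis) at 1, 2, 4 and 6 h (x axis) for the 34 genes opposed at 2 h (points) and for all genes (grey box from the 5th to the 95th percentile, with the median as a line). The 34 genes, chosen at 2 h, have medians of -1.81, -0.79 and -0.72 at the other times.

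In the largest slide differences of all, the channel 1 slide was the lower. TIF4631, which encodes a scaffold protein of translation initiation, read -3.50 and -3.76 on the channel 1 slide and 0.86 and 0.60 on the channel 2 slide. Together with RPS7A, STM1, RPG1, YHB1 and RPS3 it was among the 6 genes whose channel 1 slide lay furthest below the channel 2 slide. In the opposite direction the differences were smaller, at most 1.89. RDL1, a thiosulfate sulfurtransferase, read 1.66 and 1.65 and then -0.08 and -0.10, and ERG25, of sterol synthesis, read 1.39 and 1.40 and then -0.18 and -0.36. YBL081W, SSA2, NUP170 and YAK1 completed these 6 genes, none of which was called.

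To find values particular to 2 h, its fitted ratio was compared with the mean of 1, 4 and 6 h in the same limma model. The times may share untreated RNA, which would enter both sides of this difference. In all, 23 genes (0.736%) were higher at 2 h and 0 lower, with 642 genes at an unadjusted p under 0.05. Their differences ran from 1.19 to 2.38. In 22 of the 23 both slides of 2 h lay above all 6 slides of the other times, as they did in 259 (8.28%) of all genes, and 184 genes (5.88%) had both below all 6. The 23 were chosen by their difference from these same slides. Their position above them follows largely from that choice, here and below, and is no further support.

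The 8 largest of these differences belonged to genes of varied roles. SBA1, the Hsp90 co-chaperone, stood at 1.42 and 2.37 on the slides of 2 h, and between -1.36 and -0.22 on the 6 other slides. RTN1, a reticulon that shapes the endoplasmic reticulum, stood at 0.71 and 2.41 at 2 h and between -1.81 and 0.03 at the other times. UBA1 stood at 0.87 and 2.99 against -1.25 to 0.31, and ISW1, the ATPase of a chromatin remodeller, at 0.68 and 2.27 against -1.28 to 0.19. For these 4 genes the 2 h slides lay above every other slide, and the differences were 2.38 ± 0.28 (adjusted p = 0.0217), 2.37 ± 0.20 (adjusted p = 0.0079), 2.33 ± 0.34 (adjusted p = 0.0398) and 2.08 ± 0.21 (adjusted p = 0.0168).

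SEC31, of the coat of vesicles that leave the endoplasmic reticulum, differed by 1.78 ± 0.20, HEM15, the ferrochelatase of haem synthesis, by 1.66 ± 0.26, and PET9, the main mitochondrial ADP/ATP carrier, by 1.60 ± 0.25. FAS1, a subunit of fatty acid synthase, differed by 1.64 ± 0.25 (adjusted p = 0.0398). FAS1 was at 0.16 at 2 h and at -1.48 in the mean of the other times, and SEC31 at 0.74 and -1.03. Neither was called at 2 h itself, nor were 6 others of the 23. Each of the 23 genes lost this call in 4 to 12 of 16 alternatives. The count of 23 rose strongly without the channel 1 slide of 2 h and changed least without the channel 1 slide of 4 h. It fell with any other slide left out. Such fits leave 1 slide at the time concerned.

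**Figure D5:**
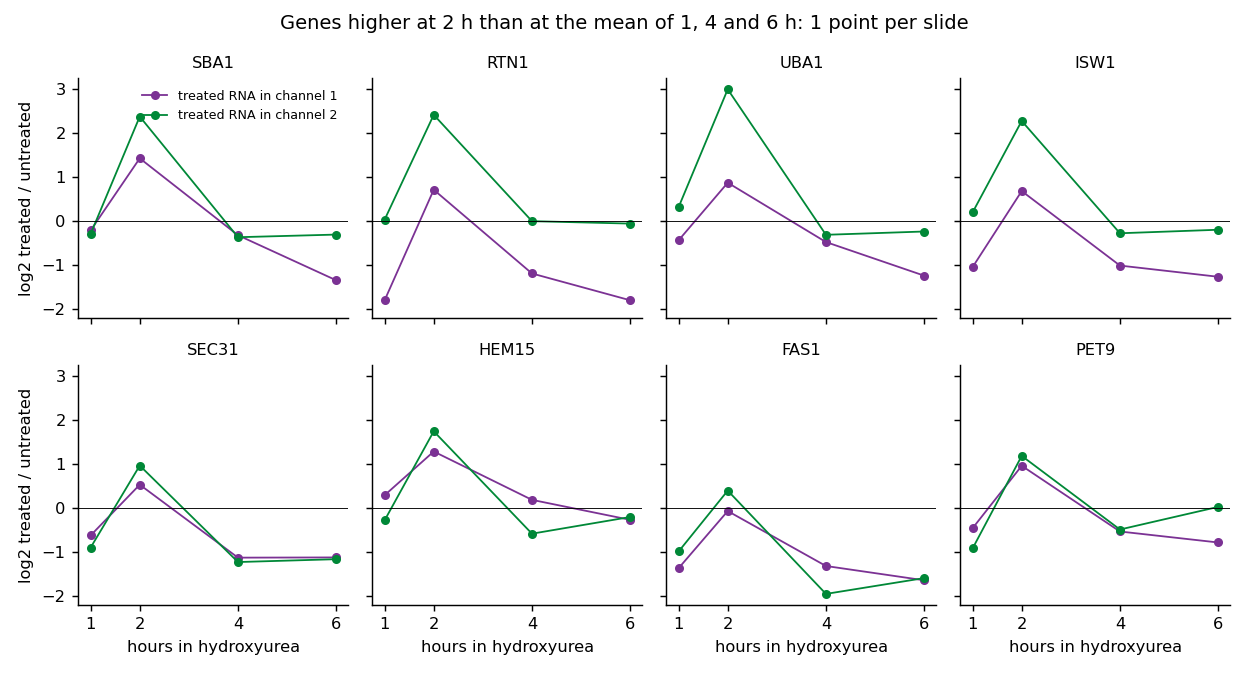
Log2 ratio of treated over untreated RNA (y axis) against hours in hydroxyurea (x axis) for the 8 genes with the largest difference between 2 h and the mean of the other times, with 1 point per slide and lines joining slides of the same orientation. Both slides of 2 h lie above the 6 other slides in each panel, and FAS1 is near 0 at 2 h and below 0 at the other times.

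The comparisons with single times have larger standard errors than that with the mean of the other times. Against 1 h, RTN1 alone passed in the limma model (0.032% of all genes), higher at 2 h by 2.45 (adjusted p = 0.0277), with 342 genes at an unadjusted p under 0.05. RTN1 was at 1.56 at 2 h and at -0.89 at 1 h. From 2 h to 4 h 0 genes passed in the limma model, with 505 at an unadjusted p under 0.05 and a lowest adjusted p of 0.0572. Without the channel 1 slide of 2 h these counts were 90 and 163, and without its channel 2 slide 7 and 4.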

How the data were processed

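The deposited table held, for each reading, a log ratio of the 2 channels per spot, taken here as log2 (the authors' base, numerator, normalization and scanner settings are not given in the sources used here). The medians of the readings lay between -1.03 and 0.45, and so had not been set to 0. Of 6912 spots 3344 named a single gene in the platform annotation, 387 several and 3181 none. Through their gene number 3343 were matched to RefSeq. Intensities were not used here, so signal over background is unknown and the number of slides limits the precision.

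Each reading was turned to treated over untreated RNA and its median over single-gene spots was set to 0. The 2 readings of a slide and the spots of a gene (207 genes had more than 1) were averaged. The model was fitted with lmFit and eBayes of limma 3.58.1 in R 4.3.3 on all 8 slides, with 3 residual and 4.89 prior degrees of freedom, no filter, two-sided tests and Benjamini-Hochberg adjustment over 3127 genes at 0.05. Errors after ± are its standard errors. The code was tested on simulated data.

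Groups came from the labels. The comparison, the 26 gene lists and the rule for named genes were chosen with earlier results of these data known. Named were the 12 genes each way with the largest called change and the same sign in all 4 readings, the 8 each way with the largest smaller slide value, called list members (up to 5 a list each way), the 6 each way with the largest slide difference, ribonucleotide reductase and histone genes, and the 8 and 5 largest each way in the comparisons between times. Other genes named were chosen after their values were seen. Alternatives were the values as deposited, quantile normalization, no orientation term, 1 reading a slide, the 2 h slides alone, each spot tested by itself, genes whose readings lay within 1, robust variance moderation, other thresholds and each slide left out. Centring within the 48 print blocks, read from the spot identifiers, was chosen after seeing the data. Promoter motifs were planned and not searched, as no sequences were used here.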

Additional observations from a re-analysis of the deposited data

Results flagged for a closer look

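The difference between 2 h and the mean of 1, 4 and 6 h passed in the limma model for 23 genes. The 8 largest differences were 2.38 for SBA1, 2.37 for RTN1, 2.33 for UBA1, 2.08 for ISW1, 1.78 for SEC31, 1.66 for HEM15, 1.64 for FAS1 and 1.60 for PET9. RTN1 also differed between 2 h and 1 h, by 2.45.

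Spots that name several genes or none were left out of the comparisons, and some of them carried signal at 2 h. Of the 387 spots with several gene names, 3 stood at 1 or more, or at -1 or less, on both 2 h slides, and 10 stood at -1 or less on the channel 1 slide and at 1 or more on the channel 2 slide. Of the 3181 spots with no gene name, 22 agreed in this way and 38 were opposed. The agreeing shares were 0.775% and 0.692%, against 1.85% among spots that name a single gene. The opposed shares were 2.58% and 1.19%, against 1.29%. More spots were thus opposed than agreeing, both with several gene names and with none. No control sample bears on these spots.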

How the results depend on the processing

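Against 131 genes called at 2 h (104 higher, 27 lower), counts of called, higher and lower genes were 237, 87 and 150 as deposited, 129, 57 and 72 after quantile normalization, 5, 4 and 1 with no orientation term, 74, 59 and 15 with the faible and 153, 109 and 44 with the fort readings, 16, 13 and 3 with the 2 h slides alone, and 84, 61 and 23 with centring within print blocks (chosen after seeing the data). Without a slide they ran from 82 to 129, 39 to 118 and 3 to 90. The lone slide of a time is then assumed to vary like the others.

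The 23 genes that differed between 2 h and the other times became 657 as deposited, 38 after quantile normalization and with the fort readings, 7 with the faible readings, 37 when each spot was tested, 0 with no orientation term or within print blocks, and 0 to 209 without a slide. The single gene of 2 h minus 1 h became 40 as deposited, 0 after quantile normalization, with no orientation term, with the fort readings or within print blocks, and 0 to 90 without a slide. From 2 h to 4 h, 0 became 548 as deposited, 20 after quantile normalization, 1 with the faible and 3 with the fort readings, and 0 to 163 without a slide. As deposited, limma gave every gene the same variance. The other causes were not tested.

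Genes agreeing on both slides were 137 higher and 69 lower at a threshold of 0.5, with 249 opposed, and 11, 2 and 5 at 1.5. They were 23, 30 and 62 as deposited. After quantile normalization 14 were higher and 6 opposed, and lower genes were 9 with the faible readings and 10 within print blocks. The correlation of the slides was -0.0665 with the faible readings, -0.0151 with the fort readings and -0.102 within print blocks. No result changed sign while called.

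Treated and untreated RNA were paired within each slide. Slides of different times could not be paired, because the labels give them no shared replicate numbers. If the logarithm is natural, the printed values are natural log ratios and the folds are larger.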

Other observations

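Called genes included members of 4 further groups, which were gathered after their values were seen and carry no test. Their counts stand beside 3.33% of all genes called higher. Some members are also in the lists of the report. In the cytoplasm-to-vacuole targeting route and autophagy, 4 of 21 measured genes were higher and 0 lower, with a median of 0.14. These were the vacuolar cargo enzymes APE1 (2.33 ± 0.30) and AMS1 (1.46 ± 0.26), their receptor ATG19 (0.78 ± 0.17), and ATG8 (0.76 ± 0.15), the protein that coats the forming membrane. The other 17 measured genes of the group were not called.

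In the pentose phosphate pathway 3 of 8 measured genes were higher, with a median of 0.13, namely ZWF1 (1.73 ± 0.22), the glucose phosphate dehydrogenase at its start, and SOL4 and GND2, which the report counts under general stress. ZWF1 read 1.46 and 1.65 on the channel 1 slide and 1.88 and 1.92 on the channel 2 slide. Among 8 measured aldo-keto reductases 4 were higher, GCY1 (1.29 ± 0.19), YDL124W (1.47 ± 0.24), YJR096W (0.78 ± 0.15) and AAD14, with a median of 0.55. Of 9 measured genes of fatty acid synthesis and desaturation OLE1 alone was called, with a median of 0.16.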
